A study of Mus musculus with 14 samples.

Results

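The genes described here are 10 mouse transcription factors and DNA-binding inhibitors of the myeloid lineage, namely Cebpa, Cebpb, Cebpd, Cebpe, Spi1, Irf8, Gfi1, Klf4, Id1 and Id2. They were picked by name from the 52550 genes of the count table. The rule itself uses no measured value, but earlier results of these data were known when the members were chosen. Of the 10 members, 9 were counted and tested, whereas Irf8 was listed at 0 counts in all 14 libraries. RNA-seq of total RNA was available for 3 kinds of cells. WT HSPCs (n = 4) were bone marrow cells of C57BL/6 mice aged 8 to 20 weeks, enriched for hematopoietic stem and progenitor cells with a commercial kit. Mir139KO HSPCs (n = 4) were prepared in the same way from mice that lack the microRNA gene Mir139. MLL-AF9 cells (n = 6) came from WT HSPCs that had been grown overnight with SCF, GM-CSF, IL-6 and IL-3 and transduced with a retrovirus expressing the MLL-AF9 fusion oncogene. Of these cultures, 3 carried pMSCV-MLL-AF9-neo and were selected with neomycin at 800 µg/mL, and 3 carried pMSCV-MLL-AF9-puro and were selected with puromycin. All 6 had been replated in semi-solid medium at least 2 times. No HSPCs cultured without the oncogene were among the samples, so MLL-AF9 itself, the culture, the cytokines and the selection cannot be told apart. The labels do not say whether the samples of a group were separate mice or cultures, and p-values therefore measure the spread between samples, which may be technical.

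In blood formation, a small set of transcription factors directs progenitors towards granulocytes and monocytes. PU.1, encoded by Spi1, and C/EBPα, encoded by Cebpa, start the myeloid programme, and C/EBPε, GFI1, IRF8 and KLF4 then take part in the split into neutrophils, monocytes and dendritic cells. The ID proteins have no DNA-binding region of their own and hold E proteins, which are helix-loop-helix factors, away from DNA. MLL-AF9 is a fusion of a histone methyltransferase with a part of the transcription elongation machinery and is known to keep myeloid progenitors in a self-renewing state.

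Total counts were 35016668 to 45877994 per library. Levels are given in CPM (normalised read counts relative to the library total), scaled between libraries by TMM factors, and 3 counts in a library correspond to 0.0654 to 0.0857 CPM before scaling. A gene was called where its adjusted p (Benjamini-Hochberg, edgeR quasi-likelihood test) was under 0.05. HSPC markers summed to 279 to 408 CPM in the HSPC libraries and to 47 to 131 CPM in MLL-AF9 cells, while the 6 genes typical of MLL-AF9 transformation (Hoxa7, Hoxa9, Hoxa10, Meis1, Mecom and Pbx3) summed to 29.8 to 55.7 CPM in HSPCs and to 424 to 1490 CPM in MLL-AF9 cells. Of these, Mecom did not rise, at 1.09 to 2.7 CPM in HSPCs, 0.139 to 0.465 CPM in neo cultures and 0.76 to 1.63 CPM in puro cultures. The HSPC marker Ly6a did not fall in every culture. It was at 13.1 to 36.2 CPM in HSPCs, at 81.3 and 69.4 CPM in puro cultures 1 and 3, and at 1.8 to 3.33 CPM in the remaining MLL-AF9 cultures. Mir139 was listed at 0 counts in all 14 libraries, so the knockout label could not be checked. The noncoding RNA gene Gm26917 took 17 to 35.4% of the counts of the HSPC libraries and 7.55 to 10.4% of those of MLL-AF9 cells. WT HSPC libraries 1 and 2 and Mir139KO HSPC libraries 2 and 3 held under 25%, and the other 4 HSPC libraries held over 25%. Puro cultures 1 and 3 were more alike than any other pair of a group (chi-square per degree of freedom of 9, against 20.9 to 764 in the other pairs). They differed by more than counting noise, which does not show that they were separate cultures. They were kept as separate samples, as labelled.

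The HSPC preparations also held transcripts of other cells. Erythroid markers summed to 891 to 1500 CPM in HSPCs and to 0.82 to 2.38 CPM in MLL-AF9 cells, with Hbb-bs, Car1 and Alas2 at 0 counts in all MLL-AF9 libraries and Alas2 at 0 in HSPCs too. In HSPCs against MLL-AF9 cells, the sums were 121 to 357 against 1.64 to 6.38 CPM for B and plasma cells, 88.3 to 176 against 2.46 to 12.1 CPM for T and NK cells, and 62.6 to 93.2 against 1.78 to 14.9 CPM for dendritic cells. They were 451 to 679 against 5.35 to 22.9 CPM for mast cells, basophils and eosinophils, 147 to 794 against 10.7 to 41.5 CPM for megakaryocytes, and 262 to 1680 against 14.7 to 115 CPM for stroma and endothelium. Monocyte and macrophage markers summed to 1780 to 2360 against 365 to 1540 CPM, and late neutrophil markers to 409 to 12400 against 291 to 4060 CPM, the latter with overlap. In bulk RNA, fewer cells of a type and less RNA per cell cannot be told apart.

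Between MLL-AF9 cells and WT HSPCs, 62.2% of the 17077 genes tested were called (10630 genes, 52.7% of them higher in MLL-AF9 cells). Of the 9 members tested, 4 were called, 1 higher (Gfi1) and 3 lower (Klf4, Id2 and Cebpa). This balance turned with the scaling, since 4 members were called higher and 1 lower with library totals in place of TMM factors, 5 higher and 2 lower with a correction for GC content, and 4 higher and 2 lower with that correction and a replicate block. With TMM factors and all cultures, the share of members called (4 of 9) was not above that of all genes. It was below that share in most other settings as well. Examples are library totals (5 of 9 against 57.8%) and puro cultures only (3 of 9 against 54.1%). In some settings it was above that share. With the GC correction 7 of 9 members were called, against 57.7% of all genes. With that correction and the block it was 6 of 9 against 49.9%, and with neo cultures only 6 of 9 against 54.2%. Their median log2 fold change was -0.28, against 0.14 over all genes tested. Between MLL-AF9 cells and Mir139KO HSPCs, where 69.3% of 16953 genes were called, 5 members were called, namely the same 4 and Cebpd, 1 higher and 4 lower, which became 3 higher and 1 lower with library totals and 5 higher and 2 lower with the GC correction. The second comparison uses the same MLL-AF9 libraries and is no independent repeat.

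**Figure D1:**
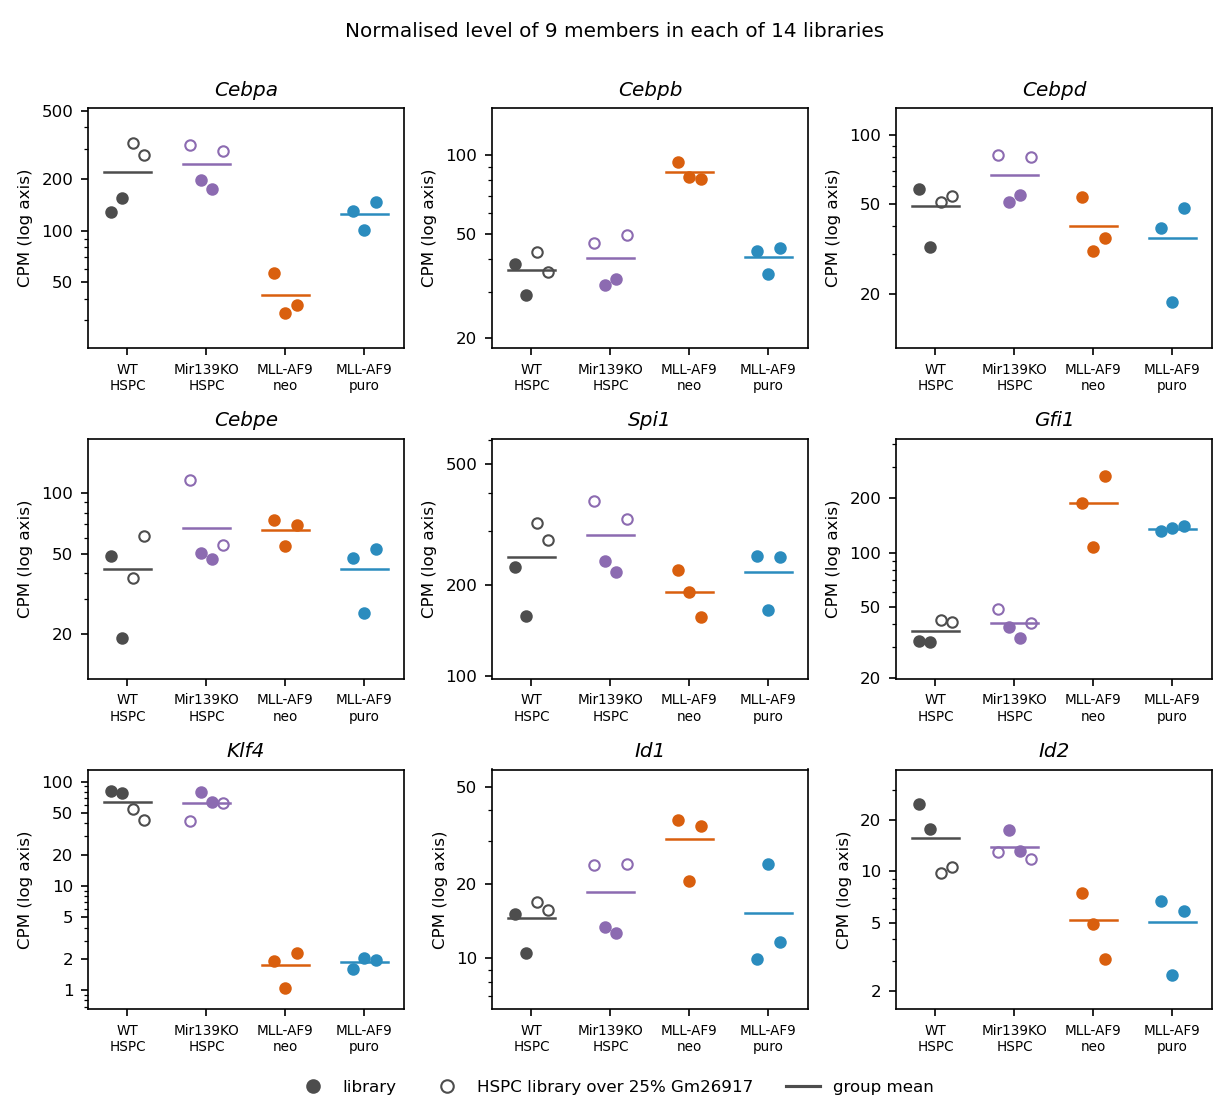
Normalised level (CPM, log axis) of the 9 counted members in each library of the 4 groups, with a line at the group mean. Open points are HSPC libraries with over 25% of counts on Gm26917. The MLL-AF9 cultures lie apart from both HSPC groups for Klf4, Gfi1 and Id2, while the neo and puro cultures lie apart from each other for Cebpa, Cebpb and Cebpe. The share of all genes that lie apart in these ways was not determined.

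For orientation, the 250 bases before the annotated RefSeq start (GRCm38.p6) are shown for the members that were called and whose window lies outside the exons of GENCODE M21. A window was at hand for 6 of the 10 members. Capitals mark matches to TATAAA (the TATA box) and CANNTG (the E-box bound by helix-loop-helix factors, and thus the kind of site that ID proteins keep E proteins from). The Cebpa window is chr7:35119043-35119292 on the plus strand, the Klf4 window chr4:55532476-55532725 on the minus strand, and the Gfi1 window chr5:107724344-107724593 on the minus strand, at a start inside the gene.
Cebpa: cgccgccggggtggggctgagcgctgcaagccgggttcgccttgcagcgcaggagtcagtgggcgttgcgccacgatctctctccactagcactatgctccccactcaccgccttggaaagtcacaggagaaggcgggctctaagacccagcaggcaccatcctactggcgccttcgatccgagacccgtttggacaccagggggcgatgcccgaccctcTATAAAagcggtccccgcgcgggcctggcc
Klf4: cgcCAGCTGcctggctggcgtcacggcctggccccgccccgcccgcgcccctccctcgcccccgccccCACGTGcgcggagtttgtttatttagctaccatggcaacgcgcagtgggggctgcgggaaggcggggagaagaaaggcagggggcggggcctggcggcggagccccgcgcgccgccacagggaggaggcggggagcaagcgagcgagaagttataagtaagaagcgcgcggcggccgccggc
Gfi1: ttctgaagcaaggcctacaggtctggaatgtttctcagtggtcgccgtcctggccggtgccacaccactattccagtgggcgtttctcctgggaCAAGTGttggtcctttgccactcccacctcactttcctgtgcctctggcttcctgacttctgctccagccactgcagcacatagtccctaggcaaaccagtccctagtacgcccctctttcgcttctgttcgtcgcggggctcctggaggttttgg
Searched on both strands, TATAAA occurred 1 time in the Cebpa window, 0 times in the other 2 and in 12.4% of all 32851 promoter windows of this length. CANNTG occurred 2 times before Klf4, 1 time before Gfi1 and 0 times before Cebpa, against 66.2% of all windows with at least 1 match. The C/EBP motif TTGCNNAA (in 9.56% of all windows) and the PU.1 core GAGGAA (in 23.3%) matched none of the 3 windows shown. Gfi1 has a second window, chr5:107725806-107726055, which lies on exons and is not shown. That window held 1 match to the C/EBP motif and 1 to CANNTG. The 3 windows shown are rich in G and C, with 74% in Klf4, 66.4% in Cebpa and 57.6% in Gfi1.

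Klf4 had the largest difference of the members. It encodes a zinc-finger factor that promotes monocyte differentiation (chromosome 4, 55527143 to 55532466, minus strand, 5 exons). The 4 WT HSPC libraries held 81.7, 77.8, 54.4 and 43.1 CPM. The 4 Mir139KO HSPC libraries held 42, 79.7, 64.4 and 62.3 CPM. The neo cultures held 1.9, 1.05 and 2.29 CPM and the puro cultures 1.62, 2.06 and 1.97 CPM. Every MLL-AF9 culture lay far below every HSPC library, and the ranges of the vectors overlapped. The mean of MLL-AF9 cells was 1.82 ± 0.434 CPM (SD, n = 6), 35.8-fold lower than the 64.3 ± 18.6 CPM (SD, n = 4) of WT HSPCs (log2 fold change -5.16, SE 0.31, adjusted p = 3.78e-07). Even at the lower level, 53 to 125 reads per MLL-AF9 library were counted for Klf4. The call held under all 24 other settings tried, with log2 fold changes of -5.51 to -4.51. Marker sums of stroma and endothelium and of monocytes fell alongside, as given above, but single markers did not all follow. Adgre1 was at 13.8 to 42.2 CPM in HSPCs and 39.3 to 100 CPM in MLL-AF9 cells, and F13a1 at 153 to 553 and 121 to 573 CPM. In puro cultures Ccr2 was at 114 to 377 CPM (9.34 to 102 CPM in HSPCs) and Pecam1 at 68.8 to 107 CPM (77.1 to 101 CPM in HSPCs). The part of such cells in the result was not tested.

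Gfi1, a zinc-finger repressor that favours the neutrophil over the monocyte fate (chromosome 5, 107716657 to 107726036, minus strand), was the member called higher in the comparison with WT HSPCs. WT HSPCs held 32.2, 31.8, 42 and 40.9 CPM and Mir139KO HSPCs 48.8, 38.6, 33.3 and 40.8 CPM. In the neo cultures the level was 188, 108 and 268 CPM and in the puro cultures 131, 137 and 140 CPM. All MLL-AF9 cultures lay above all HSPC libraries, and the neo cultures were more spread than the puro cultures. Gfi1 reached a mean of 162 ± 58.1 CPM (SD, n = 6) in MLL-AF9 cells, 4.34-fold above the 36.7 ± 5.44 CPM (SD, n = 4) of WT HSPCs (log2 fold change 2.12, SE 0.31, adjusted p = 0.000151). Its exons share 101 bases with A430072P03Rik on the other strand, and since the strand setting of the counting is not stated, reads of both cannot be told apart there. The call held under all 24 other settings, with log2 fold changes of 1.84 to 2.98.

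Id2, an inhibitor of helix-loop-helix factors best known from NK, innate lymphoid and dendritic cells (chromosome 12, 25093799 to 25097140, minus strand), fell. WT HSPCs held 24.7, 17.8, 9.83 and 10.6 CPM, Mir139KO HSPCs 13, 17.5, 13.2 and 11.8 CPM, neo cultures 7.5, 4.91 and 3.08 CPM and puro cultures 6.71, 2.48 and 5.89 CPM. The groups did not overlap, although the lowest WT HSPC library and the highest MLL-AF9 culture were close. Its mean of 15.7 ± 6.95 CPM (SD, n = 4) in WT HSPCs compared with 5.09 ± 2 CPM (SD, n = 6) in MLL-AF9 cells, 3.1-fold lower (log2 fold change -1.63, SE 0.40, adjusted p = 0.00359). Against WT HSPC libraries over 25% Gm26917 only, the log2 fold change was -1.12 (SE 0.45, adjusted p = 0.0525) and the call was lost, as it was with library totals (-1.14, adjusted p = 0.0667). The sums of T and NK cell markers and of dendritic markers, which Id2 is known to accompany, fell with it, as given above. Flt3, at 36 to 66.3 CPM in HSPCs, made the largest part of the dendritic sum and is also an HSPC marker. The dendritic marker Ccr9 rose, from 0.0735 to 0.349 CPM in HSPCs to 0.495 to 3.16 CPM in MLL-AF9 cells. Clec9a was at 3.52 and 2.64 CPM in puro cultures 1 and 3, against 2.11 to 2.93 CPM in HSPCs. The part of such cells in this difference was not tested.

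The other inhibitor, Id1 (chromosome 2, 152736251 to 152737410, plus strand), a target of BMP signalling, did not pass the test. Its level was 10.5 to 17 CPM in WT HSPCs, 12.7 to 24.3 CPM in Mir139KO HSPCs, 20.6 to 36.7 CPM in the neo cultures and 9.91 to 24.3 CPM in the puro cultures. All 3 neo cultures lay above every WT HSPC library, and 1 of the 3 puro cultures did. Pooled over both vectors, the log2 fold change against WT HSPCs was 0.63 (95% interval -0.21 to 1.48, adjusted p = 0.173). Id1 was called higher with library totals (1.26, adjusted p = 0.019), with the GC correction (1.37, adjusted p = 0.0105) and with that correction and a replicate block (1.38, adjusted p = 0.0128).

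Of the 4 C/EBP factors, only Cebpa passed the test against WT HSPCs. Cebpa (chromosome 7, 35119293 to 35121928, plus strand) encodes the factor needed for the step from common to granulocyte-monocyte progenitors. WT HSPCs held 128, 156, 323 and 275 CPM, Mir139KO HSPCs 315, 196, 175 and 291 CPM, neo cultures 56.9, 33.1 and 36.7 CPM and puro cultures 130, 101 and 146 CPM. The neo cultures lay below every HSPC library, whereas 2 of the 3 puro cultures reached the lowest WT HSPC library. The mean of 83.9 ± 48.6 CPM (SD, n = 6) in MLL-AF9 cells was 2.67-fold lower than that of WT HSPCs, 221 ± 93.4 CPM (SD, n = 4; log2 fold change -1.42, SE 0.46, adjusted p = 0.017). Without WT HSPC replicate 3, the library with the highest level, the log2 fold change was -1.2 (adjusted p = 0.0531) and the call was lost.

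The HSPC libraries were themselves split by their Gm26917 share. Cebpa was at 164 ± 28.9 CPM (SD, n = 4, 128 to 196 CPM) in the HSPC libraries under 25% and at 301 ± 22.2 CPM (SD, n = 4, 275 to 323 CPM) in those over 25%, with no overlap. Against WT HSPC libraries under 25% the log2 fold change of Cebpa was -0.81 (SE 0.56, adjusted p = 0.264), with a correction for GC content it was -0.44 (SE 0.38, adjusted p = 0.33), and with library totals it was -0.67 (SE 0.45, adjusted p = 0.217). Spi1 (158 to 239 against 280 to 377 CPM), Gfi1 (31.8 to 38.6 against 40.8 to 48.8 CPM) and Id1 (10.5 to 15.1 against 15.7 to 24.3 CPM) were split in the same direction without overlap. Klf4 (64.4 to 81.7 against 42 to 62.3 CPM) and Id2 (13.2 to 24.7 against 9.83 to 13 CPM) were split in the opposite direction. Thus 6 of the 9 counted members did not overlap between the 4 and the 4 libraries, each set with 2 WT and 2 Mir139KO libraries. Of the 15056 genes tested between the HSPC groups, 65% did not overlap in this split either, a share near that of the members, and nothing particular to the members can be read from it.

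Cebpb (chromosome 2, 167688915 to 167690418, plus strand) encodes the C/EBP factor of macrophages and of stress-driven granulocyte production. It was at 29.2 to 42.4 CPM in WT HSPCs and 31.9 to 49.6 CPM in Mir139KO HSPCs. The neo cultures held 94.5, 82.4 and 81.3 CPM, above every HSPC library, and the puro cultures 43.1, 35.2 and 44.3 CPM, within the range of Mir139KO HSPCs. The pooled log2 fold change of 0.79 (95% interval 0.07 to 1.5) missed the threshold (adjusted p = 0.054), and it passed when any of the 3 puro cultures was left out (adjusted p = 0.0235 without puro replicate 2, 0.042 without puro replicate 1 and 0.0437 without puro replicate 3). It also passed with library totals (1.4, adjusted p = 0.00657), the GC correction (1.64, adjusted p = 0.00269), that correction with a replicate block (1.93, adjusted p = 0.000697), the block alone (1, adjusted p = 0.0446), a single fit of all 14 libraries (0.7, adjusted p = 0.0117) and puro cultures 1 and 3 summed (0.89, adjusted p = 0.0411). In the fits with the block, puro cultures 2 and 3 had no HSPC library of the same number and did not inform the contrast. Those fits thus rest on the 3 neo cultures and puro culture 1. Of its exon bases, 312 are shared with Tmem189 on the other strand.

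Cebpd (chromosome 16, 15887286 to 15891031, plus strand), an acute-phase C/EBP factor, was at 32.2 to 57.9 CPM in WT HSPCs, 51 to 82.3 CPM in Mir139KO HSPCs and 18.5 to 53.7 CPM in MLL-AF9 cells. The 3 ranges overlapped. Its log2 fold change was -0.39 (95% interval -1.07 to 0.29, adjusted p = 0.293) against WT HSPCs and -0.87 (95% interval -1.5 to -0.24, adjusted p = 0.0176) against Mir139KO HSPCs. The latter call was lost without Mir139KO HSPC replicate 1 (adjusted p = 0.0561) or without replicate 4 (adjusted p = 0.054). It was also lost with library totals (-0.07, adjusted p = 0.859), the GC correction (-0.31, adjusted p = 0.323), that correction with a replicate block (-0.24, adjusted p = 0.29), libraries under 25% Gm26917 (-0.55, adjusted p = 0.234) and neo cultures only (-0.75, adjusted p = 0.0534). Its exons share 562 bases with Spidr on the other strand.

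Cebpe (chromosome 14, 54710360 to 54712174, minus strand), needed for the granules of late neutrophils, was at 19.2 to 61.5 CPM in WT HSPCs, 47.1 to 116 CPM in Mir139KO HSPCs, 54.8 to 73.1 CPM in neo cultures and 25.3 to 52.7 CPM in puro cultures. The difference to WT HSPCs was not called (log2 fold change 0.34, 95% interval -0.46 to 1.14, adjusted p = 0.434). It was called higher with library totals (1.01, adjusted p = 0.0398), with the GC correction (1.25, adjusted p = 0.0116) and with that correction and a replicate block (1.56, adjusted p = 0.00676). Late neutrophil markers varied between the same libraries, with sums of 9750, 409, 2790 and 5390 CPM in WT HSPC libraries 1 to 4, beside Cebpe at 48.9, 19.2, 38 and 61.5 CPM. In Mir139KO HSPC libraries 1 to 4 the sums were 12400, 6690, 6670 and 4360 CPM, beside Cebpe at 116, 50.4, 47.1 and 55.2 CPM. The lowest and the highest library were the same for both, whereas the libraries between them were not in the same order, and the part of these cells in the level of Cebpe was not tested.

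Spi1, the gene of PU.1 (chromosome 2, 91082390 to 91115756, plus strand, 5 exons), had the highest mean per length in every group, and its ranges overlapped between the groups. It was at 158 to 319 CPM in WT HSPCs, 220 to 377 CPM in Mir139KO HSPCs and 157 to 249 CPM in MLL-AF9 cells. The log2 fold change was -0.28 against WT HSPCs (95% interval -0.87 to 0.3, adjusted p = 0.378) and -0.54 against Mir139KO HSPCs (95% interval -1.05 to -0.03, adjusted p = 0.0572). Its direction depended on the scaling. With the GC correction the log2 fold change against WT HSPCs was 0.59 (adjusted p = 0.0249), and against WT HSPC libraries over 25% Gm26917 it was -0.67 (adjusted p = 0.0419), so that Spi1 passed the threshold in opposite directions. With library totals in place of TMM factors the median of all genes shifted from 0.14 to 0.69 and 68.3% of the called genes were higher in MLL-AF9 cells, and Spi1 at 0.4 and Cebpd at 0.25 lay below that median.

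Irf8, the factor of monocyte and dendritic progenitors (chromosome 8, 120736358 to 120756694, plus strand), was listed at 0 counts in all 14 libraries. It lies in an unbroken run of 72 protein-coding genes listed at 0, from Crispld2 to Galnt2 (119992438 to 124345724), which includes Rpl13 and Cox4i1, which encode a ribosomal protein and a subunit of the respiratory chain used by nearly all cells. The zeros therefore say nothing about the level of Irf8 in any group.

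**Figure D2:**
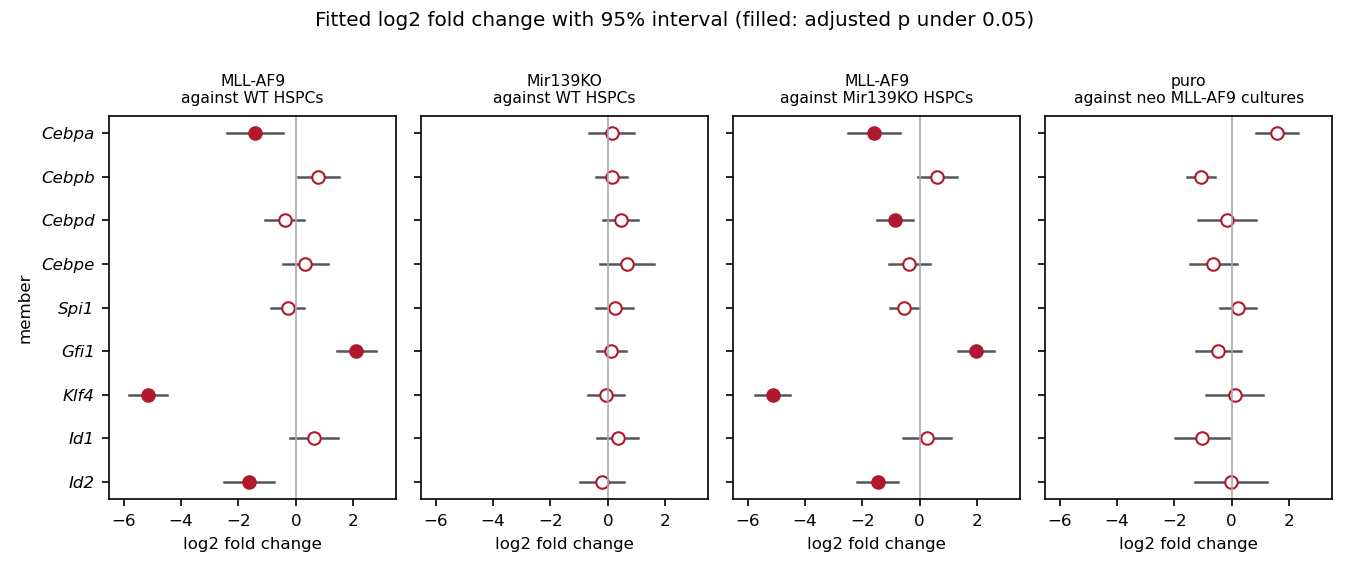
Fitted log2 fold change (x axis) of the 9 counted members in the 4 comparisons, with 95% intervals. Filled points have an adjusted p under 0.05. Klf4 lies near -5 in both comparisons of MLL-AF9 cells with HSPCs, and no point is filled for Mir139KO against WT HSPCs or for puro against neo cultures.

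Whether loss of Mir139 alters the myeloid factors of HSPCs was addressed by comparing Mir139KO with WT HSPCs. None of the 9 members tested was called, and 0% of the 15056 genes were called by edgeR or by DESeq2. At an unadjusted p under 0.05 there were 86 genes (0.571%), none of them a member. The log2 fold changes of the members ran from -0.19 (Id2, 95% interval -0.95 to 0.57) to 0.68 (Cebpe, 95% interval -0.26 to 1.62), and the adjusted p was 1 for each. The intervals were narrowest for Gfi1 (-0.39 to 0.65) and Cebpb (-0.41 to 0.69). For Cebpa (-0.66 to 0.93), Spi1 (-0.42 to 0.89) and Klf4 (-0.69 to 0.58) they spanned 0 as well.

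The vectors were then compared, because both kinds of culture had been pooled as MLL-AF9 cells. Between 3 puro and 3 neo cultures, 0.873% of 16503 genes were called (144 genes) and no member was. At an unadjusted p under 0.05 lay 13.7% of the genes and 3 members, Cebpa, Cebpb and Id1. DESeq2 called 8.03% of the genes and 2 members, Cebpa and Cebpb. Cebpa was 2.98-fold higher in puro cultures (126 ± 23.2 against 42.2 ± 12.8 CPM, SD, n = 3 each, log2 fold change 1.58, SE 0.30, adjusted p = 0.079) and higher in 3 of 3 puro cultures than in any neo culture. Cebpb was 2.1-fold lower (40.9 ± 4.96 against 86.1 ± 7.34 CPM, SD, n = 3 each, log2 fold change -1.07, SE 0.21, adjusted p = 0.0813), likewise without overlap. The 2 factors, which form dimers with each other and bind the same motif, were thus ordered in opposite directions between the vectors. Of the 6 fits that left out 1 culture, both passed the threshold only without puro replicate 2 (adjusted p = 0.0266 for Cebpa and 0.0408 for Cebpb), which leaves the closely alike puro cultures 1 and 3. In the other 5 fits the adjusted p was 0.0756 to 0.312 for Cebpa and 0.145 to 0.315 for Cebpb, and with puro cultures 1 and 3 summed it was 0.298 and 0.31. Cebpe was lower in puro cultures without overlap (log2 fold change -0.64, 95% interval -1.45 to 0.17, adjusted p = 0.493). The share of all genes without overlap between the vectors was not determined, so nothing particular to these members can be read from the lack of overlap.

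Among the other genes fixed for the myeloid network, 3 were called between the vectors and are named after their values were seen. Elf1, an ETS factor, was higher in puro cultures (350 against 135 CPM, log2 fold change 1.38, adjusted p = 0.0493). Klf5, a KLF factor best known from epithelia, was lower (8.99 against 32.1 CPM, log2 fold change -1.83, adjusted p = 0.0478). Camp, which encodes a late granule protein and is a C/EBPε target, was lower (5.56 against 119 CPM, log2 fold change -4.41, adjusted p = 0.014). None of the 3 kept its call without neo replicate 2 or without neo replicate 3, where 0 genes of the whole table were called. The vector was also a choice of selection drug, and the 2 cannot be told apart.

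**Figure D3:**
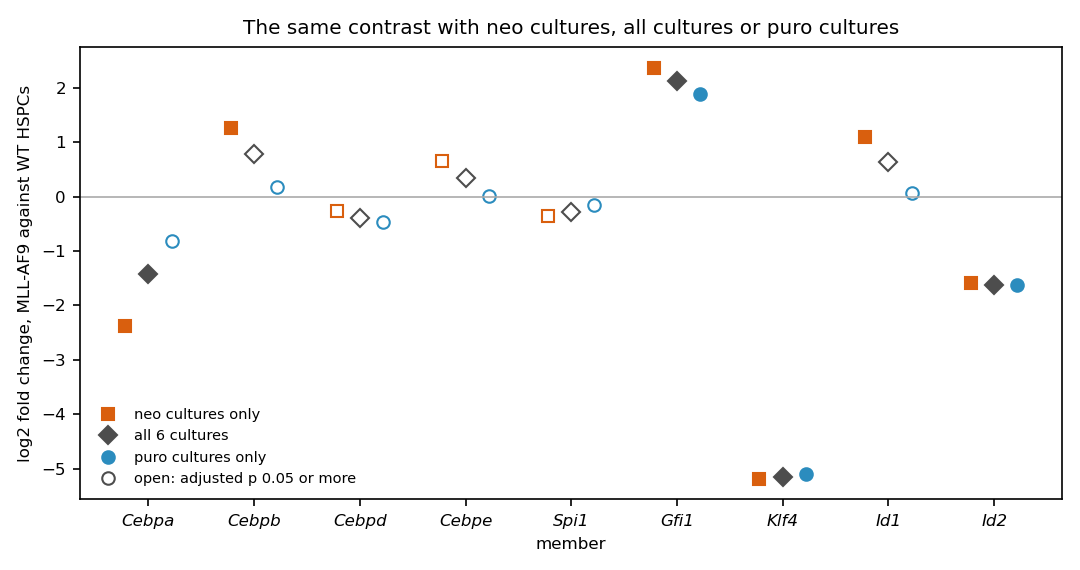
Log2 fold change against WT HSPCs (y axis) of each member when only neo cultures, all 6 cultures or only puro cultures were used. Filled symbols have an adjusted p under 0.05. Klf4, Gfi1 and Id2 were filled in all 3 cases, whereas Cebpa, Cebpb and Id1 were filled with neo cultures and open with puro cultures.

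Tested 1 vector at a time against the same WT HSPCs, members were called with each vector, with neo cultures only, or with neither. Called with neither were Cebpd (adjusted p = 0.553 with neo and 0.364 with puro cultures), Cebpe (0.194 and 0.992) and Spi1 (0.407 and 0.735). Klf4 (-5.18 with neo and -5.09 with puro cultures), Gfi1 (2.37 and 1.89) and Id2 (-1.58 and -1.63) were called with either vector. Cebpa was called with neo cultures (log2 fold change -2.37, adjusted p = 0.00173) and not with puro cultures (-0.81, adjusted p = 0.119). The same held for Cebpb (1.26, adjusted p = 0.007, against 0.17, adjusted p = 0.649) and Id1 (1.09, adjusted p = 0.0261, against 0.06, adjusted p = 0.911). The test of the difference itself is the comparison of the vectors above, in which none of Cebpa, Cebpb and Id1 passed the threshold.

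**Figure D4:**
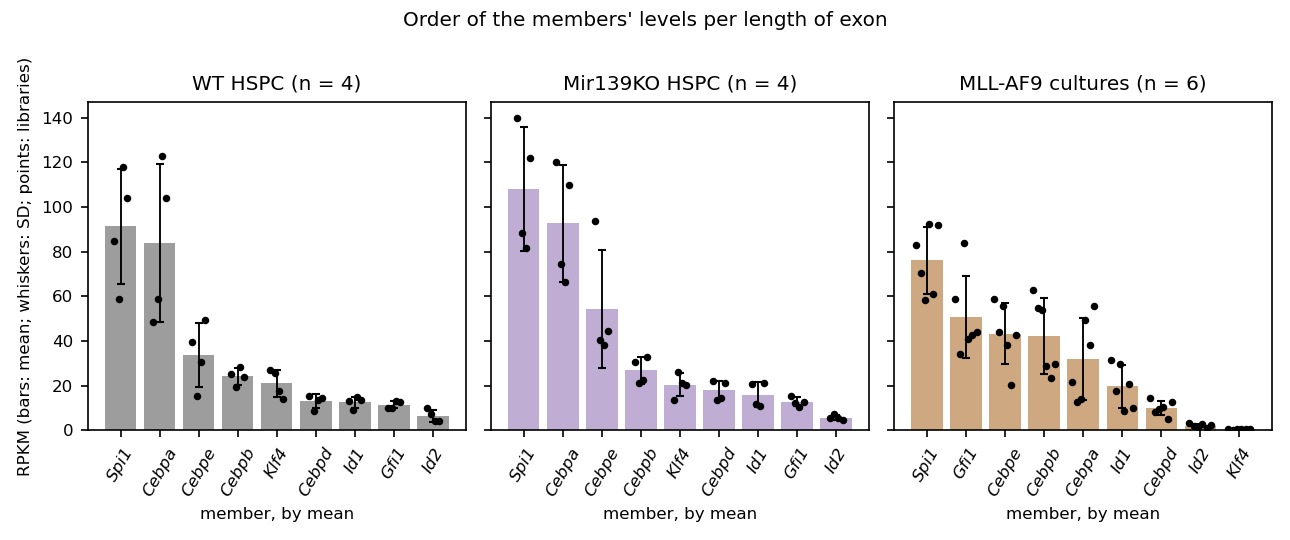
Level per length of exon (RPKM, y axis from 0) of the 9 counted members, ordered by their mean in each group. Bars are means, whiskers SD and points libraries. Spi1 has the highest mean in each group, although it exceeds Cebpa in only 1 of the 4 WT HSPC libraries, and Klf4 is last in MLL-AF9 cells while Gfi1 moves from near the end to behind Spi1.

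To compare levels between genes, CPM were divided by exon length (RPKM). In WT HSPCs the order of RPKM levels was Spi1 (91.4 ± 25.8), Cebpa (83.7 ± 35.4), Cebpe (33.8 ± 14.4), Cebpb (24.2 ± 3.68), Klf4 (21.1 ± 6.08), Cebpd (13 ± 3.05), Id1 (12.6 ± 2.46), Gfi1 (11.5 ± 1.71) and Id2 (6.45 ± 2.85; SD, n = 4). Each neighbour in this order overlapped the next in its range over libraries, and Spi1 exceeded Cebpa in 1 of the 4 libraries only, so that this pair was not ordered. Cebpa exceeded Cebpe in 4 of the 4 libraries although their ranges overlapped. In Mir139KO HSPCs the order was the same, from Spi1 at 108 ± 27.7 to Id2 at 5.68 ± 1.02 RPKM (SD, n = 4), and only Cebpe (54.2 ± 26.4) and Gfi1 (12.7 ± 2.03) did not overlap the next. In MLL-AF9 cells the order was Spi1 (76.1 ± 15.1), Gfi1 (50.8 ± 18.2), Cebpe (43.3 ± 13.8), Cebpb (42.2 ± 16.9), Cebpa (31.8 ± 18.4), Id1 (19.8 ± 9.65), Cebpd (10 ± 3.35), Id2 (2.09 ± 0.82) and Klf4 (0.595 ± 0.142; SD, n = 6). The 6 members from Spi1 to Id1 each overlapped the next, whereas Cebpd, Id2 and Klf4 did not overlap each other. Gfi1 thus moved from rank 8 in WT HSPCs to rank 2, and Klf4 from rank 5 to rank 9.

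**Figure D5:**
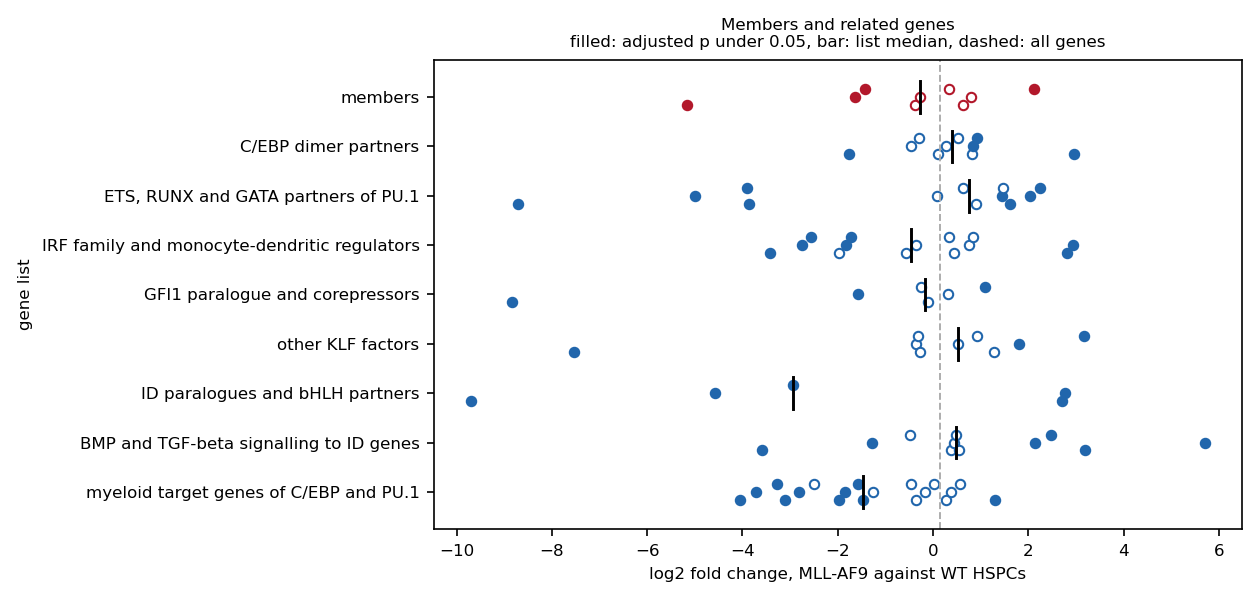
Log2 fold change between MLL-AF9 cells and WT HSPCs (x axis) of the members and of 8 lists of related genes (y axis). Filled points have an adjusted p under 0.05, black bars are list medians and the dashed line is the median of all genes tested. Most lists hold called genes in both directions, and the members' median of -0.28 lies close to the line at 0.14.

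Related genes were read in the same comparison, against the 62.2% of all genes that were called and the median of 0.14. Their levels are means ± SD of WT HSPCs (n = 4) followed by MLL-AF9 cells (n = 6). Of 10 partners with which C/EBP proteins can form dimers, 3 rose (Atf4, Fos and Fosb) and 1 fell, at a median of 0.4. The latter, Batf3, a factor of dendritic cells, went from 0.849 ± 0.132 to 0.251 ± 0.121 CPM (log2 fold change -1.77, adjusted p = 0.00676), a call that was lost with library totals (-1.15, adjusted p = 0.0581) and with the GC correction (-0.95, adjusted p = 0.102). Of 12 ETS, RUNX and GATA factors that work with or against PU.1, 4 rose (Runx1, Fli1, Etv6 and Elf1) and 4 fell (Spib, Spic, Gata1 and Gata2), at a median of 0.76. The erythroid factor Gata1 (138 ± 71 to 0.328 ± 0.239 CPM, log2 fold change -8.72, adjusted p = 1.6e-06), the stem and mast cell factor Gata2 (163 ± 57.3 to 5.2 ± 4.44 CPM, -5, adjusted p = 0.000287) and the PU.1 relative Spic (2.1 ± 1.03 to 0.139 ± 0.14 CPM, -3.9, adjusted p = 0.00107) did not overlap between the groups. GATA1 and PU.1 hold each other in check, and here Gata1 fell while Spi1 did not pass the test. The erythroid and mast cell marker sums given above fell with both Gata genes, and their part was not tested.

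With Irf8 not measured, 14 genes of the IRF family and of monocyte and dendritic regulation stood in for its pathway, of which 2 rose and 5 fell at a median of -0.46. Irf1, Irf4, Irf5, Irf7 and Irf9 were those that fell. Irf5, a factor of inflammatory macrophages, fell from 114 ± 29.8 to 10.6 ± 8.15 CPM (log2 fold change -3.43, adjusted p = 0.000228). Egr1 (5.79 ± 2.32 to 44.4 ± 44.1 CPM, 2.93, adjusted p = 0.00258), an immediate-early factor that supports the monocyte fate, and Zeb2 (78.4 ± 41.5 to 555 ± 211 CPM, 2.81, adjusted p = 0.000242), a repressor needed for monocytes and plasmacytoid dendritic cells, rose.

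Of the 6 genes of the GFI1 paralogue and the corepressors that GFI1 recruits, 1 rose and 2 fell, at a median of -0.18. Gfi1b, which acts in red cells and megakaryocytes, fell from 145 ± 76.3 to 0.322 ± 0.191 CPM (log2 fold change -8.83, adjusted p = 1.65e-06), opposite to Gfi1. Ehmt2, a histone H3 lysine methyltransferase, fell (299 ± 147 to 102 ± 9.63 CPM, -1.58, adjusted p = 0.000976), and the scaffold Rcor1 rose (80.6 ± 45.8 to 172 ± 20.4 CPM, 1.08, adjusted p = 0.0192). The Rcor1 call was lost without WT HSPC replicate 4 (0.87, adjusted p = 0.0637), and that of Ehmt2 with the GC correction and a replicate block (-0.46, adjusted p = 0.181). Of 9 other KLF factors, 2 rose and 1 fell, at a median of 0.53. Klf1, the erythroid KLF, fell from 217 ± 113 to 1.18 ± 0.53 CPM (-7.53, adjusted p = 1.03e-06), Klf7 rose from 15.7 ± 8.1 to 142 ± 29.7 CPM (3.16, adjusted p = 3.98e-05) and Klf9 from 17.4 ± 2.54 to 61.6 ± 39.7 CPM (1.8, adjusted p = 0.00476). Klf7 and Klf9 thus moved in the direction opposite to Klf4, though the Klf9 call was lost with neo cultures only (0.8, adjusted p = 0.0607).

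Of 7 ID paralogues and helix-loop-helix partners, 5 were tested, and all 5 were called, 2 higher (Tcf4 and Tcf12) and 3 lower, at a median of -2.94. Id3 fell from 1.9 ± 1.22 to 0.0783 ± 0.102 CPM (log2 fold change -4.57, adjusted p = 0.00108). The mean of Id3 in MLL-AF9 cells lies at the level of 3 counts per library (0.0654 to 0.0857 CPM before scaling), so the size of its fall is poorly determined. Tcf3, the E protein gene that ID proteins are best known to oppose, fell from 283 ± 109 to 37.8 ± 12.9 CPM (-2.94, adjusted p = 2.85e-05), and Tal1, an erythroid and stem cell partner of E proteins, from 175 ± 32.5 to 0.213 ± 0.206 CPM (-9.7, adjusted p = 1.84e-06). Of 11 genes that carry BMP and TGF-β signals to the ID genes, 4 rose and 2 fell, at a median of 0.49. The receptor genes Bmpr1a (1.35 ± 1.48 to 72.6 ± 47.2 CPM, 5.71, adjusted p = 0.000466) and Tgfbr1 (7.96 ± 5.98 to 73.5 ± 39.3 CPM, 3.18, adjusted p = 0.000724) rose, while Acvr1 fell (9.44 ± 3.1 to 0.782 ± 0.657 CPM, -3.6, adjusted p = 0.000444).

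Of 20 myeloid genes known as targets of C/EBP factors and PU.1, 19 were tested, of which 1 rose (Cd14) and 9 fell, at a median of -1.48. Those that fell were Csf1r, Csf3r, Il6ra, Elane, Mpo, Prtn3, Lyz2, Fcgr1 and Ltf. Mpo, the peroxidase of primary granules, fell from 5040 ± 2620 to 315 ± 210 CPM (log2 fold change -4.05, adjusted p = 8.47e-05). Csf1r, the receptor of macrophage colony-stimulating factor, fell from 346 ± 136 to 26.7 ± 32.1 CPM (-3.71, adjusted p = 0.00277), and Lyz2, the lysozyme of myeloid cells, from 1420 ± 945 to 166 ± 144 CPM (-3.11, adjusted p = 0.00133). Of the list, 5 genes also stand among the markers above, Csf1r for monocytes and Ltf, Camp, Ngp and Lcn2 for late neutrophils, and their part in the list's median was not tested. These falls came with a lower Cebpa and with no called difference in Spi1, Cebpb, Cebpd or Cebpe. In Mir139KO against WT HSPCs, 0 genes of any of the 8 lists were called.

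Finally, the genes whose pattern over the 14 libraries was most like that of each member were sought among 8386 protein-coding genes, by the root mean square difference of centred log2 CPM. The closest matches were those of Spi1, with Pxn and Rgl2 each at 0.11, against an SD of 0.39 for Spi1 itself. For Klf4 they were Sec14l2 (0.46) and Aqp9 (0.59), against an SD of 2.64, and for Gfi1 Slc26a10 (0.29) and Slc39a11 (0.3), against 1.09. Those of Cebpa were Pink1 (0.22) and Itpr3 (0.24), against 1.08, and those of Id2 Samhd1 (0.33) and Fam129a (0.41), against 0.95. The remaining members were closest to Zdhhc19 (0.16) and Tbc1d2 (0.24) for Cebpb, Zbtb7b (0.2) and Nfam1 (0.24) for Cebpd, Aldh3b1 (0.26) and Ncf1 (0.32) for Cebpe, and Sh3tc1 (0.31) and Plxnd1 (0.34) for Id1. All libraries of a group share their cell source, and the Gm26917 share is part of these patterns.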

How the data were processed

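Raw read counts per gene (52550 genes, 14 libraries) were used as deposited. Per the submitters' processing notes the authors used FastQC 0.11.8, MultiQC, STAR 2.5.3e, featureCounts 1.6.0 and DESeq2 1.22.2, with GRCm38. Libraries were made from ribosome-depleted total RNA, and the strand setting of the counting is not given in the sources used here. A second table with 10 columns of another series was not used.

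Each comparison was fitted with edgeR 4.0.16 in R 4.3.3 (quasi-likelihood F test, robust, TMM factors, genes with at least 10 counts in as many libraries as the smaller arm holds, Benjamini-Hochberg over all genes tested). Only the libraries compared entered a fit, and the script was tested on simulated data. Log2 CPM used a prior count of 2. Gene positions, exon lengths and GC content came from GENCODE M21 on GRCm38, which matched 52403 genes. Promoter sequences came from RefSeq.

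The members, lists and tests were chosen with earlier results of these data known. Named beside the members were up to 3 genes of each list with the largest called change without overlap, and the 2 protein-coding genes most like each member, among those whose log2 CPM averaged 3 or more. Alternatives were RLE factors, total counts, DESeq2 1.42.0, no filter on low counts, a single fit of 14 libraries, a GC correction, removal of Gm26917, HSPC libraries under or over 25% Gm26917, 1 vector only, puro cultures 1 and 3 summed, each replicate left out, and a replicate block. Against HSPCs the block used the sample numbers, and puro cultures 2 and 3 (numbers 5 and 6) had no HSPC partner. They therefore did not inform those fits. The floor of 3 counts covers counting error only.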

Additional observations from a re-analysis of the deposited data

How the results depend on the processing

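Of 747 log2 fold changes of members under the alternatives, 649 kept direction and side of the threshold, 19 lost a call, 42 gained one and 37 turned sign. Gfi1 and Klf4 were called against WT HSPCs in 24 of 24 alternatives, Id2 in 22, Cebpa in 18 and Cebpb in 10. For MLL-AF9 against WT HSPCs, the GC correction called 7 of 9 members (5 higher and 2 lower) and 57.7% of all genes. For MLL-AF9 against Mir139KO HSPCs, HSPC libraries under 25% Gm26917 called 3 of 9 members and 51% of all genes. Between puro and neo cultures, DESeq2 called 2 members and 8.03% of all genes, and the single fit 2 members and 4.23%. The GC correction called 1 member and 0.996% of all genes, and with the block 1 member and 1.51%. The cause was not tested.

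Signs turned against WT HSPCs with total counts (Cebpd 0.25, Spi1 0.4), the GC correction (Cebpd 0.13, Spi1 0.59), GC with the replicate block (Cebpd 0.21, Spi1 0.63), libraries under 25% (Spi1 0.04) and over 25% (Cebpe -0.01). Against Mir139KO HSPCs they turned with total counts (Cebpe 0.46, Spi1 0.25), the GC correction (Cebpe 0.73, Spi1 0.44), GC with the block (Cebpe 0.95, Spi1 0.45), libraries under 25% (Cebpe 0.08), over 25% (Id1 -0.17) and puro cultures (Id1 -0.29). For Mir139KO against WT HSPCs they turned with the GC correction (Cebpb -0.05), under 25% (Cebpb -0.02) and over 25% (Cebpa -0.02, Klf4 0.06, Id2 0.24). For puro against neo cultures Id2 was 0.01 with total counts and 0.02 with the GC correction. With total counts, 71.4% of the genes called against Mir139KO HSPCs were higher in MLL-AF9 cells, against 53.9% with TMM factors.

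Leaving out each replicate, 3 to 5 of 9 members were called against WT HSPCs, beside 53 to 61.1% of all genes. Against Mir139KO HSPCs 4 to 6 members were called, beside 61.9 to 69.1% of all genes. For Mir139KO against WT HSPCs 0 members were called, and between vectors 0 to 2, beside 0 to 5.75% of all genes. Ranges that crossed 0 were -0.07 to 0.39 (Cebpa), -0.2 to 0.09 (Klf4) and -0.35 to 0.1 (Id2) for Mir139KO against WT HSPCs, -0.51 to 0.02 (Cebpe) against Mir139KO HSPCs, and -0.47 to 0.16 (Cebpd), -0.3 to 0.38 (Id2) and -0.16 to 0.34 (Klf4) between vectors. Genes called between vectors numbered 144, against 1326 by DESeq2, 761 in the single fit, 5 with puro cultures 1 and 3 summed, 990 without puro replicate 2, 0 without neo replicate 2 or 3, 41 without neo replicate 1, 5 without puro replicate 1 and 3 without puro replicate 3.

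The samples share only a replicate number, since deviations of same-numbered samples correlated at -0.652 to 0.719. With the replicate block, 5, 0, 6 and 1 members were called against WT HSPCs, for Mir139KO against WT HSPCs, against Mir139KO HSPCs and between vectors, and 9300, 0, 11455 and 214 genes. Against either HSPC group, puro cultures 2 and 3 had no partner of the same number and did not inform the block fits. Of the samples, 1 of 8, 2 of 8, 4 of 8 and 3 of 6 correlated best with their own number.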
